A study of Mus musculus with 4 samples.

Results

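The 8 genes described here encode enzymes that make arginine (Ass1 and Asl), pass it on to creatine (Gatm), use ornithine (Oat and Odc1), or make nitric oxide from arginine and control that step (Nos2, Nos3 and Ddah1). They were taken by gene symbol from the 54078 features of the deposited expression table, and each was found as 1 feature. The mean FPKM (fragments scaled by gene length and library size) over the 4 libraries was at least 0.5 for 7 of them, which were tested. Nos2 lay under this limit and is given by its values only.

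Kidney RNA was sequenced at day 3 after bilateral renal ischemia/reperfusion (I/R), in which both kidneys were clamped for 30 min, to look for pathways that differ between injured kidneys with and without tubular Apela, the gene of the peptide Elabela. The Apela Ksp KO mice carried floxed Apela alleles (Apela flox/flox) and a Cre recombinase driven by the Ksp-cadherin promoter, which is active in renal tubular epithelium. The control mice, called WT, were Apela flox/flox littermates without Cre, so both groups carried the floxed alleles and both were injured. There were 2 libraries per group, each described as a pool of RNA from 3 adult male mice, so that n = 2 counts pools, and no uninjured kidney was among these libraries. The labels give a mixed C57BL/6 x 129S4/SvJae strain and the study's methods C57BL/6. The design text mentions adipose tissue as the origin of the RNA, whereas the title and the labels say kidney.

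Arginine is made in the kidney mainly by the proximal tubule, where argininosuccinate synthase joins citrulline and aspartate and argininosuccinate lyase releases arginine from the product. Nitric oxide synthases oxidise arginine to nitric oxide and citrulline, and glycine amidinotransferase moves its amidino group to glycine in the first step of creatine synthesis. Nitric oxide relaxes the renal vessels. Ornithine, which the amidinotransferase also releases, is a branch point, from which ornithine aminotransferase leads to glutamate and proline and ornithine decarboxylase to the polyamines.

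The libraries held 16045724 to 16927742 reads assigned to genes. The pools of a group differed by more than counting error, with a chi-square per gene of 31.5 for the WT pools and 24.5 for the KO pools. Apela had an FPKM of 5.27 and 4.57 in WT and 0.536 and 0.245 in KO, in the direction of the labels (log2 fold change -2.62, SE 0.22, adjusted p = 0.466). The kidney markers were present, with summed proximal tubule markers between 6057 and 11230 FPKM, and of the 6 adipose markers Lep, Ucp1 and Retn had 3 reads or fewer in every pool. The other adipose markers were higher in KO, with Cidec at 41 and 9 reads in WT and 246 and 84 in KO, Plin1 at 4 and 1 in WT and 27 and 9 in KO, and Adipoq at 0 in all pools but KO pool 2, which had 6. Their part in the results was not tested. Of the 15414 genes tested with limma, 0 (0%) passed a Benjamini-Hochberg adjusted p of 0.05, Apela included, and 974 (6.32%) had an unadjusted p under 0.05. Both KO pools lay on the same side of both WT pools for 5822 genes (37.8%), of which 3031 (19.7%) were higher and 2791 (18.1%) lower in KO. With 2 pools on either side, the smallest two-sided p of an exact permutation test is 0.333.

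No member passed the adjusted threshold, and 3 of the 7 tested had an unadjusted p under 0.05 (Gatm, Nos3 and Odc1), beside 6.32% of all tested genes. The same 3 members were those whose pools did not overlap, with Nos3 higher and Gatm and Odc1 lower in both KO pools. A share of 3 in 7 is close to the 37.8% of all tested genes without overlap. The remaining 4 tested members overlapped between the groups. The median log2 fold change of the 7 members was -0.42, and that of all tested genes 0.01. This negative median depended on KO pool 1. Without that pool, Ass1 (0.29), Asl (0.03), Oat (0.08), Ddah1 (0.10) and Nos3 (0.76) were above 0. Gatm (-0.98) and Odc1 (-0.30) were below 0. For 4 of the 8 members (Ass1, Asl, Gatm and Odc1) the lowest value stood in KO pool 1.

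**Figure D1:**
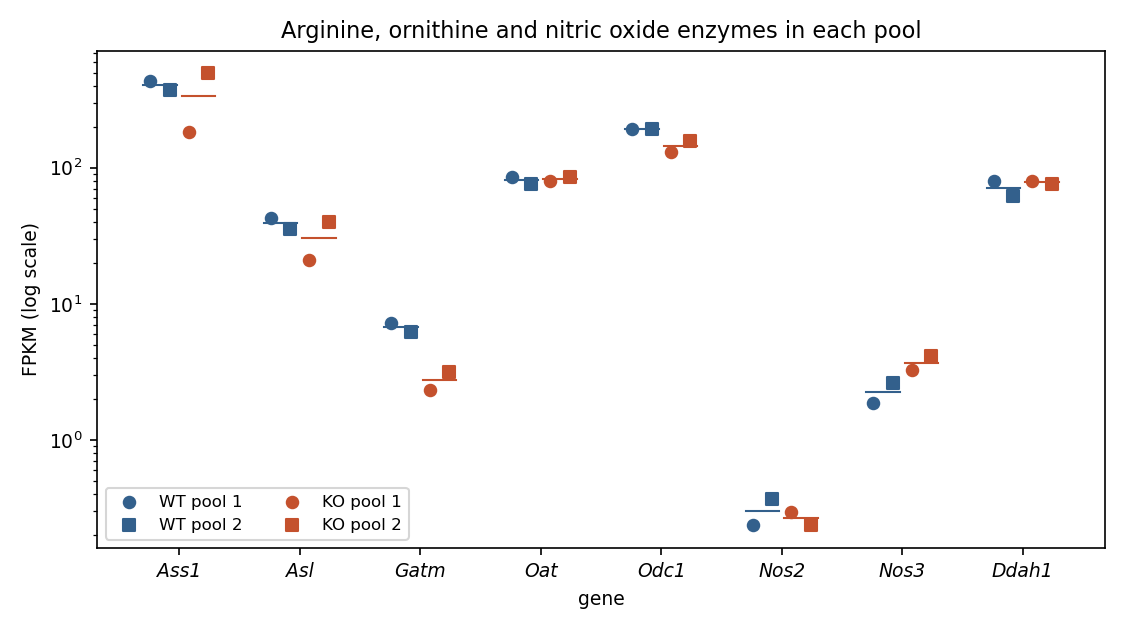
FPKM (log axis) of the 8 members, with 1 point per pool (circles for pool 1, squares for pool 2) and a horizontal line at the mean of each group of 2 pools. The groups separate for Gatm, Odc1 and Nos3, and the KO pools stand far apart for Ass1 and Asl.

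By mean FPKM over the 4 libraries, which is a level per gene length, the members ran from Ass1 through Odc1, Oat, Ddah1, Asl, Gatm and Nos3 to Nos2. Within this order Oat and Ddah1 (75.5 to 85.6 and 62.5 to 80.4 FPKM) overlapped in their ranges, as did Gatm and Nos3 (2.33 to 7.30 and 1.88 to 4.13 FPKM). The ranges of Ass1 and Odc1 also overlapped, because Ass1 in KO pool 1 was below Odc1 in the WT pools. Nos2 was below every other member in every pool.

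Ass1 (ENSMUSG00000076441, chr2:31470207-31520672, plus strand of GRCm38, 16 exons) encodes argininosuccinate synthase and was the most abundant member. WT pools 1 and 2 had an FPKM of 434.5 and 375.1, and KO pools 1 and 2 of 184.3 and 493.0. The KO pools thus held both the lowest and the highest value, 2.67-fold apart, while the WT pools were 1.16-fold apart. The group means were 404.8 ± 42.0 in WT and 338.7 ± 218 in KO (SD, n = 2), and the log2 fold change of -0.42 (SE 0.50, adjusted p = 0.888) became 0.29 without KO pool 1. Of the 1647 windows of 50 bases in the Ass1 transcript, 911 (55.3%) also occurred in the pseudogene Gm5424, on which the table placed 20.9% to 25.8% of the joint reads. With these reads added, Ass1 had 1343 and 1227 reads per 1000000 reads assigned to genes in WT and 561.5 and 1553 in KO, the same order of pools as for Ass1 alone.

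Asl (ENSMUSG00000025533, chr5:130011258-130029247, minus strand, 17 exons) encodes argininosuccinate lyase, the next enzyme. Its FPKM was 42.7 and 35.4 in WT and 20.9 and 39.9 in KO. As for Ass1, KO pool 1 was the lowest, but KO pool 2 lay within the WT range. Asl had a log2 fold change of -0.42 (SE 0.33, adjusted p = 0.840), and without KO pool 1 it was 0.03. The ratio of Ass1 to Asl within a pool does not depend on the scaling of the library, and was 10.2 and 10.6 in WT and 8.83 and 12.4 in KO, which overlapped.

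The summed proximal tubule markers were 11230 and 6057 FPKM in WT and 7569 and 11200 in KO, most of it from Kap. Of the 10 markers, 1 was higher and 4 were lower in both KO pools (19.7% and 18.1% of all tested genes), and the median log2 fold change was -0.07. The lowest value stood in WT pool 2 for 6 of these markers, as for their sum, and in KO pool 1 for the other 4. Lrp2 and Slc5a2, both lower in KO, had an unadjusted p under 0.05 (0.0390 and 0.0276), and none of the 10 passed the adjusted threshold. Slc34a1, 1 of those 4 and the phosphate transporter of the proximal tubule, had an FPKM of 897.8 and 688.6 in WT and 365.1 and 609.0 in KO, and Slc22a6, the organic anion transporter, had 233.4 and 141.2 in WT and 236.3 and 383.3 in KO. The haemoglobin and Alas2 transcripts of red blood cells summed to 128.4 and 126.4 in WT and to 64.6 and 179.1 in KO, a low and a high KO pool as for Ass1. Tubule markers with this order were Slc7a13 of the proximal straight segment (37.7 and 24.3 FPKM in WT, 12.9 and 44.0 in KO), Slc12a3 (79.7 and 64.3, 52.9 and 84.7) and Calb1 (37.8 and 20.8, 16.1 and 43.2). The other markers of the proximal straight segment and of the thick ascending limb and distal tubule did not have it. The part of these marker levels in the Ass1 and Asl values was not tested. In whole kidney RNA, fewer cells of a type and less RNA per cell cannot be told apart.

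Gatm (ENSMUSG00000027199, chr2:122594467-122611303, minus strand, 9 exons) encodes glycine amidinotransferase, the mitochondrial enzyme that commits arginine to creatine and is expressed in the proximal tubule. Its FPKM was 7.30 and 6.18 in WT and 2.33 and 3.16 in KO, from 352, 319, 117 and 154 reads. The groups did not overlap, and the gap between them was larger than the distance between the pools of either group. The means were 6.74 ± 0.792 in WT and 2.75 ± 0.587 in KO (SD, n = 2), so the WT mean was 2.45-fold higher. The log2 fold change was -1.16 (SE 0.18, unadjusted p = 0.00182, adjusted p = 0.545 with limma), and 116 of the tested genes had a lower one. Over the alternatives the adjusted p ranged from 0.322 to 0.992 and the log2 fold change with a pool left out from -1.35 to -0.98. No window of 50 bases in the Gatm transcript occurred in another gene. As a percentage of the summed proximal tubule markers, a ratio added after the values were seen, Gatm was 0.0650% and 0.102% in WT and 0.0308% and 0.0282% in KO. Of the 5 markers of tubular injury, 2 were higher and 1 was lower in both KO pools, each with an unadjusted p under 0.05 and none past the adjusted threshold (19.7%, 18.1% and 6.32% of all tested genes were higher, lower and at that p). Lcn2 had an FPKM of 132.6 and 95.2 in WT and 249.0 and 273.1 in KO, Krt20 had 35.6 and 36.8 in WT and 60.0 and 61.0 in KO, and Vcam1 had 14.6 and 31.0 in WT and 10.5 and 2.59 in KO. Havcr1 and Spp1 overlapped. The part of the injury marker levels in the values of Gatm and the other members was not tested.

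Odc1 (ENSMUSG00000011179, chr12:17544794-17551505, plus strand, 12 exons) encodes ornithine decarboxylase, the first enzyme of polyamine synthesis, and was the other member that was lower in both KO pools. Its FPKM was 192.7 and 192.5 in WT, almost equal, and 130.9 and 156.5 in KO. The means were 192.6 ± 0.153 in WT and 143.7 ± 18.1 in KO (SD, n = 2), and the WT mean was 1.34-fold higher. On the log2 scale the difference was -0.43 (SE 0.16, unadjusted p = 0.0484, adjusted p = 0.785 with limma), and the unadjusted p rose to between 0.0832 and 0.285 with any of the pools left out. Of the 2159 windows of 50 bases in its transcript, 911 (42.2%) also occurred in 16 other genes. The table held 14 of them as pseudogenes with 1.21% to 1.68% of the joint reads, and with these added Odc1 had 658.0 and 711.3 reads per 1000000 reads assigned to genes in WT and 448.0 and 524.0 in KO. The groups stayed apart on this scale, on which the WT pools were less alike than in FPKM, whose scaling uses size factors.

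The promoters of these 2 members that were lower in both KO pools are shown to set their sequence beside their values. Of the 8 members, 5 (Ass1, Gatm, Ddah1, Oat and Odc1) were in the RefSeq promoter table of GRCm38.p6, which spans 250 bases before to 50 bases after the start of a gene. The windows were searched on both strands for 4 motifs. The GC box, spelled GGGCGG, occurred in 35.7% of all 32851 promoters of that table. The E box was searched as CACGTG and was found in 7.15% of the promoters. The core of the antioxidant response element, TGACNNNGC, was present in 12.4% of the windows. The TATA box was searched with the letters TATAAA and occurred in 13.6%. The Ddah1 window holds none of these motifs, and the Oat window holds the GC box 2 times. In the Ass1 window the GC box and the E box occur 1 time each. Ddah1, Oat and Ass1 overlapped between the groups. The Gatm window (chr2:122611228-122611527, minus strand) holds none of these 4 motifs, and the Odc1 window (chr12:17544623-17544922, plus strand) holds the GC box 4 times, counting both strands, in capitals.
Gatm: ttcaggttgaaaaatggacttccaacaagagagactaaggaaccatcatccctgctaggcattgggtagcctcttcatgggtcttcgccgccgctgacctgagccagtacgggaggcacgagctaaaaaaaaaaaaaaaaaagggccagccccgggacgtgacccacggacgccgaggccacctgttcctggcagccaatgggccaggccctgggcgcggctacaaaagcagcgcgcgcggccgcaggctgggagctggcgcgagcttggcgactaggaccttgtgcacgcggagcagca
Odc1: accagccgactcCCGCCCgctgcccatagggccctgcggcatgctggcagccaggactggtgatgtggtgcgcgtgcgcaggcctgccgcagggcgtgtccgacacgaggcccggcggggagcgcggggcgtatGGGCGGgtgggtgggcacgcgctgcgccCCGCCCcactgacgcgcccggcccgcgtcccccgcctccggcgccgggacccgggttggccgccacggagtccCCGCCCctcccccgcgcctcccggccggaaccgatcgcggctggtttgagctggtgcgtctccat
The windows differ in base composition, with 60.7% G and C for Gatm and 78.0% for Odc1 beside a median of 52.7% over all promoters.

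Oat (ENSMUSG00000030934, chr7:132557478-132576398, minus strand, 10 exons) encodes ornithine aminotransferase, which takes ornithine towards glutamate and proline. Its FPKM was 85.6 and 75.5 in WT and 79.5 and 85.0 in KO, and the KO pools lay within the WT range. The fitted log2 difference was 0.03 (SE 0.14, adjusted p = 0.975), and its sign turned under other scalings, to -0.07 when libraries were scaled to their FPKM sums and -0.08 under quantile normalization. The ratio of Oat to Odc1 was 0.444 and 0.392 in WT and 0.608 and 0.543 in KO, higher in both KO pools. The Oat level overlapped and the Odc1 level was lower.

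**Figure D2:**
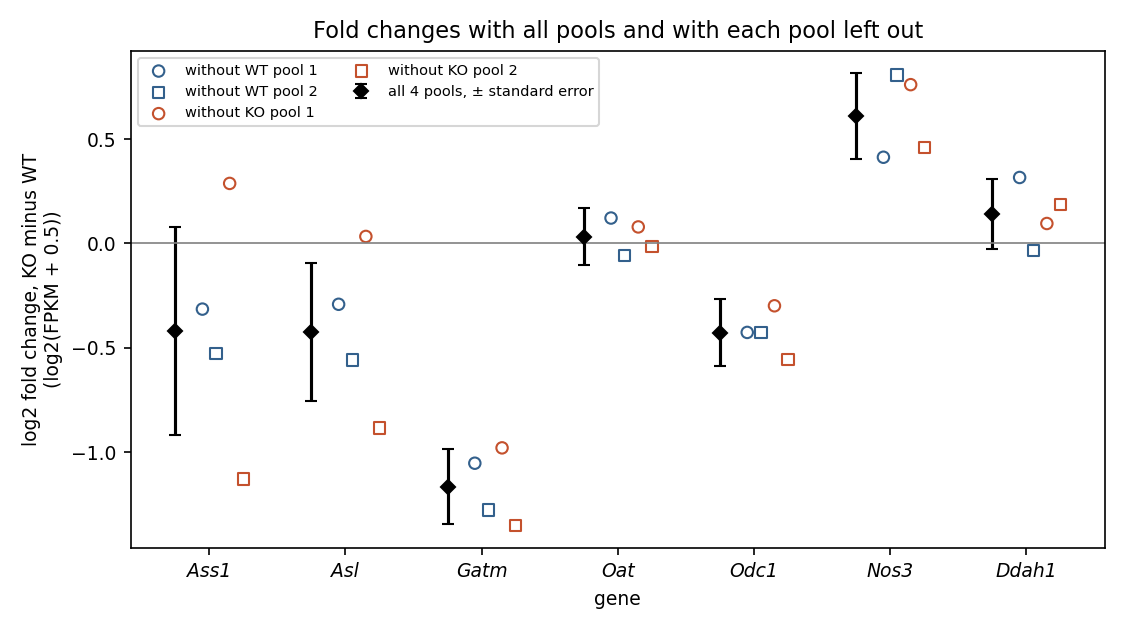
Log2 fold change (KO minus WT, of log2(FPKM + 0.5)) of the 7 tested members with all 4 pools (diamonds, bars are ± 1 SE) and with each pool left out (open symbols). Gatm and Odc1 stay below 0 and Nos3 above 0 in every case, while Ass1, Asl, Oat and Ddah1 cross 0.

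Nos3 (ENSMUSG00000028978, chr5:24364810-24384474, plus strand, 26 exons) encodes the endothelial nitric oxide synthase. Its FPKM was 1.88 and 2.63 in WT and 3.26 and 4.13 in KO, from 125, 187, 225 and 277 reads. KO was the higher group without overlap, although the gap between WT pool 2 and KO pool 1 was smaller than the distance between the pools of either group. The means were 2.26 ± 0.529 in WT and 3.69 ± 0.617 in KO (SD, n = 2), a 1.64-fold difference. The log2 fold change was 0.61 (SE 0.21, unadjusted p = 0.0341, adjusted p = 0.785 with limma), between 0.41 and 0.81 with a pool left out. Without WT pool 1 its unadjusted p was 0.129, and without KO pool 2 it was 0.165. The antisense genes Gm15587 and Atg9b share 1040 (25.2%) and 294 (7.12%) bases with the Nos3 exons, and their FPKM did not exceed 0.127 and 0.237.

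The summed endothelial markers were higher in both KO pools, as was Nos3, and most of this sum and of its difference came from 1 gene, Plvap. The sum was 181.2 and 205.4 FPKM in WT and 252.7 and 262.1 in KO, and 6 of the 10 markers were higher in both KO pools and 0 lower (median log2 fold change 0.22), beside 19.7% higher and 18.1% lower of all tested genes. WT pool 1 held the lowest value of 9 of these markers and of Nos3, and WT pool 2 that of 1 marker (Esam). Without WT pool 1 the log2 fold changes of Cdh5 (-0.20) and Egfl7 (-0.13) were negative, and those of the other markers stayed positive. Plvap, a protein of fenestrated endothelium, was the 1 marker with an unadjusted p under 0.05, and none passed the adjusted threshold. Its FPKM was 103.0 and 110.1 in WT and 161.0 and 151.8 in KO. Kdr, Tek, Tie1, Esam and Ehd3 were also higher in both KO pools, with 6.50 and 6.70 against 6.86 and 9.70 for Kdr. The markers Pecam1, Cdh5, Emcn and Egfl7 overlapped between the groups. Pecam1 had 10.9 and 14.3 against 13.8 and 18.7, and Cdh5 had 9.30 and 13.4 against 9.64 and 13.9. As a percentage of the endothelial sum, a ratio added after the values were seen, Nos3 was 1.04% and 1.28% in WT and 1.29% and 1.58% in KO, higher in both KO pools by a narrow margin. The part of the endothelial marker level in the Nos3 values was not tested.

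Nos2 (ENSMUSG00000020826, chr11:78920787-78960254, plus strand, 27 exons) encodes the inducible synthase of activated macrophages and other cells. It had 17 and 28 reads in WT and 22 and 17 in KO, or an FPKM of 0.240 and 0.369 in WT and 0.298 and 0.237 in KO. The groups overlapped, and with so few reads only large differences could be seen at this depth. The 12 macrophage markers summed to 189.4 and 470.0 FPKM in WT and 232.1 and 222.2 in KO, highest in WT pool 2. Nos2 was also highest in that pool, but its 95% counting intervals overlapped (18.6 to 40.5 reads there and 13.8 to 33.3 in KO pool 1). The reads therefore do not settle which pool was highest for Nos2. Of the macrophage markers 1 was higher (Cd163) and 3 were lower in both KO pools, together close to the 37.8% of all tested genes. The median of their log2 fold changes was -0.59, which depended on WT pool 2. Without that pool, Adgre1, C1qa, C1qb, C1qc and Cx3cr1 were below 0 (down to -0.35). The other macrophage markers were then above 0 (up to 0.74). The part of these markers in the member values was not tested. Nos1, the neuronal synthase, which is known from the macula densa, was also under the limit for testing, with 0.117 and 0.141 in WT and 0.139 and 0.171 in KO. Nos3 therefore made up most of the nitric oxide synthase transcript level per length in every pool.

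The coding sequences of Nos2 and Nos3, read from GENCODE M21, have 3432 and 3606 bases, and 2153 of 3347 aligned bases (64.3%) were identical. The stretch below is shown because it bears on whether reads of the more abundant synthase could be placed on the other. It holds their longest shared run, 22 bases in capitals, with 30 bases on either side, 5' to 3' on the coding strand, and spans coding bases 878 to 899 in Nos2 and 845 to 866 in Nos3.
Nos2: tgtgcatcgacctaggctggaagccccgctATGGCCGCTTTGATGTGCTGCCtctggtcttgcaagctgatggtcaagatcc
Nos3: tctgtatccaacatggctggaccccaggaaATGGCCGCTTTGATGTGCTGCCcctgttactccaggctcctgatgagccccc
No window of 50 bases in the Nos2 transcript occurred in another gene.

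Ddah1 (ENSMUSG00000028194, chr3:145758675-145894277, plus strand, 6 exons) encodes a dimethylargininase, which degrades asymmetric dimethylarginine, an inhibitor of nitric oxide synthases. Its FPKM was 79.7 and 62.5 in WT and 80.4 and 75.4 in KO, and the groups overlapped (log2 fold change 0.14, SE 0.17, adjusted p = 0.888). Ddah2, the other dimethylargininase, had 16.4 and 17.5 in WT and 18.4 and 20.2 in KO (log2 fold change 0.18, SE 0.11, adjusted p = 0.809). The ratio of Ddah1 to Ddah2 was 4.85 and 3.57 in WT and 4.37 and 3.73 in KO and overlapped.

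The 3 nitric oxide synthases summed to 2.24 and 3.14 FPKM in WT and to 3.69 and 4.54 in KO, higher in both KO pools. These sums and the ratios above are of transcript levels per length and give no enzyme activity.

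**Figure D3:**
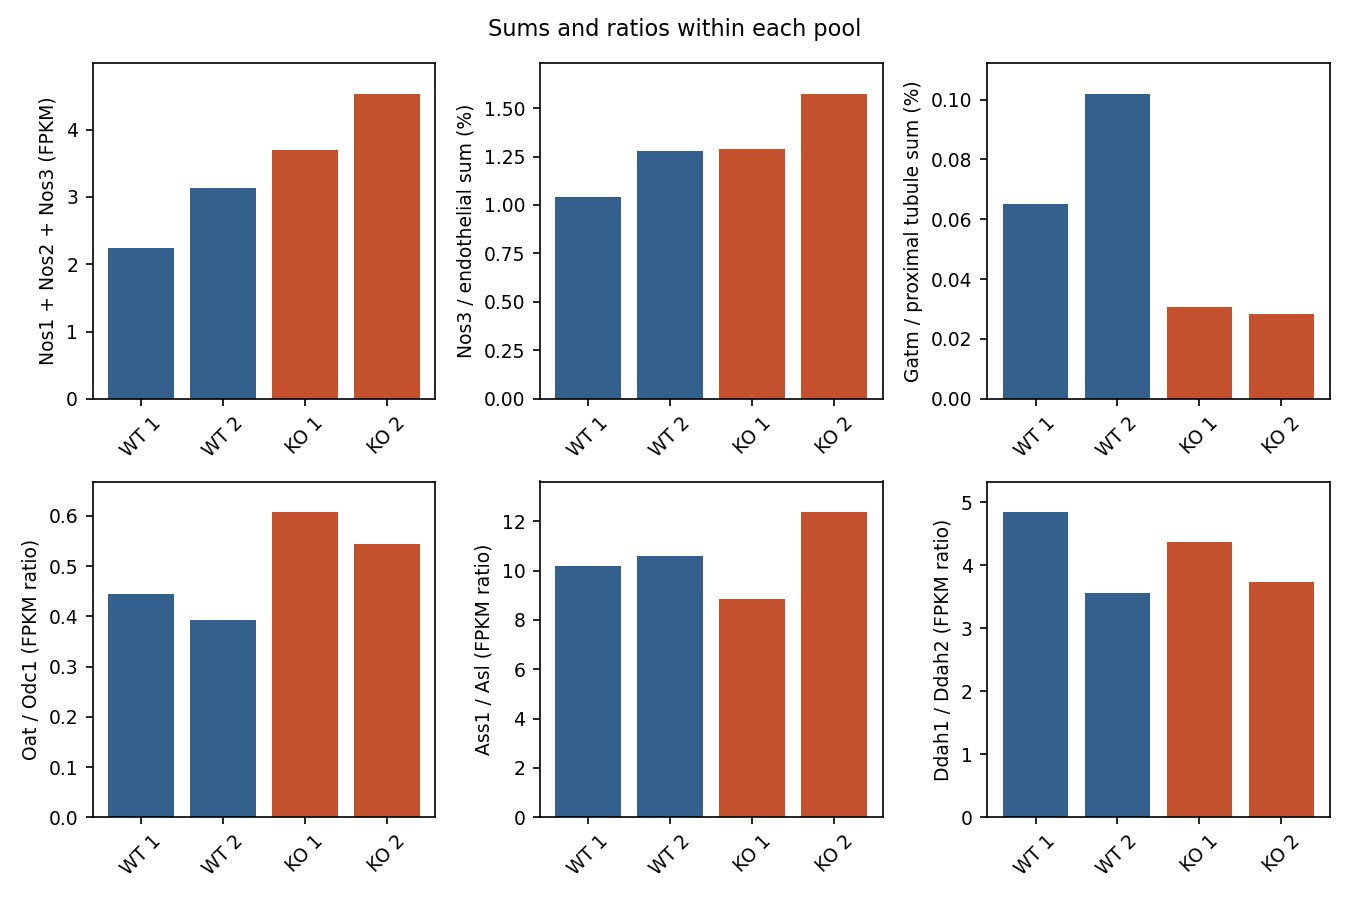
Summed nitric oxide synthase FPKM, Nos3 in percent of the summed endothelial markers, Gatm in percent of the summed proximal tubule markers and the FPKM ratios of Oat to Odc1, Ass1 to Asl and Ddah1 to Ddah2, with 1 bar per pool and axes from 0. The groups overlap for Ass1 to Asl and Ddah1 to Ddah2, and in the other 4 panels the bars of both KO pools lie on the same side of both WT bars.

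The other genes of these pathways were read from the same test across all genes. The lists held 68 gene symbols, of which Pycr3 was not in the table, and 52 of the 67 found there were tested. None passed the adjusted threshold, 3 had an unadjusted p under 0.05 (Slc7a7, Prodh2 and Slc14a2), a share close to the 6.32% of all tested genes, 7 were higher and 8 lower in both KO pools, and their median log2 fold change was -0.03. Their share without overlap, 15 of 52, was below the 37.8% of all tested genes. Slc25a2, Cps1, Otc, Slc14a1, Prodh, Ckm, Ckmt2 and Oaz3 had 3 reads or fewer in every pool, among them Cps1 and Otc, the mitochondrial urea cycle enzymes of the liver.

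Among the 9 tested transporters of arginine and ornithine, 0 were higher and 3 lower in both KO pools (19.7% and 18.1% of all tested genes), and the median log2 fold change was -0.18. Slc7a7, the light chain of the basolateral exporter of cationic amino acids in the proximal tubule, had an FPKM of 47.2 and 45.8 in WT and 23.7 and 23.9 in KO, 1.95-fold higher in WT with almost no spread within a group (log2 fold change -0.95, SE 0.11, adjusted p = 0.466). Its heavy chain Slc3a2 had 73.8 and 66.9 in WT and 68.7 and 73.8 in KO and overlapped. Slc7a9 and Slc3a1, the apical cystine and cationic amino acid exchanger, had 48.3 and 39.8 against 38.3 and 39.1 and 142.6 and 119.9 against 100.4 and 123.1. Slc25a15, the mitochondrial ornithine carrier, had 32.6 and 24.3 in WT and 27.4 and 35.1 in KO and overlapped.

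Of the 7 tested genes that link ornithine with proline and glutamate, 3 were higher and 1 was lower in both KO pools, counts that like those of the lists below rest on few genes and stand beside 19.7% and 18.1% of all tested genes. The lower gene was Prodh2, the hydroxyproline dehydrogenase of kidney and liver, with 38.6 and 35.8 in WT and 21.6 and 19.6 in KO (log2 fold change -0.84, SE 0.12, adjusted p = 0.493). Slc14a2, the urea transporter of the medulla and the tested gene of the urea list, had 9.41 and 8.39 in WT and 16.2 and 11.9 in KO (log2 fold change 0.62, SE 0.18, adjusted p = 0.785). Around Gatm, the creatine and agmatine list had 0 of 6 tested genes higher and 1 lower in both KO pools. Gamt, the enzyme that completes creatine, had 11.0 and 8.90 in WT and 9.56 and 8.53 in KO, and the creatine transporter Slc6a8 had 68.0 and 68.5 in WT and 59.6 and 70.9 in KO, and both overlapped.

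Around Odc1, 2 of the 11 tested polyamine genes were higher and 2 lower without overlap. Azin1, the antizyme inhibitor that stabilises ornithine decarboxylase, had 18.7 and 17.7 in WT and 14.4 and 16.3 in KO, and Oaz1, the antizyme that targets it for degradation, had 159.1 and 151.9 in WT and 182.5 and 174.7 in KO. Also without overlap were Amd2, lower in KO (1.20 and 0.704 in WT, 0.557 and 0.459 in KO), and Paox, higher in KO (2.21 and 3.04 in WT, 3.46 and 3.30 in KO). None of these genes had an unadjusted p under 0.05 with limma. Around the synthases, 0 of the 10 tested partner and cofactor genes separated the groups, and Gch1, the first enzyme of tetrahydrobiopterin synthesis, had 0.727 and 1.52 in WT and 1.41 and 0.897 in KO. In the asymmetric dimethylarginine list 1 of 5 (Ddah2) was higher in both KO pools, and in the nitric oxide response list 1 of 3 was lower, Gucy1a1, a subunit of soluble guanylate cyclase, with 6.84 and 8.97 in WT and 6.67 and 5.67 in KO.

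**Figure D4:**
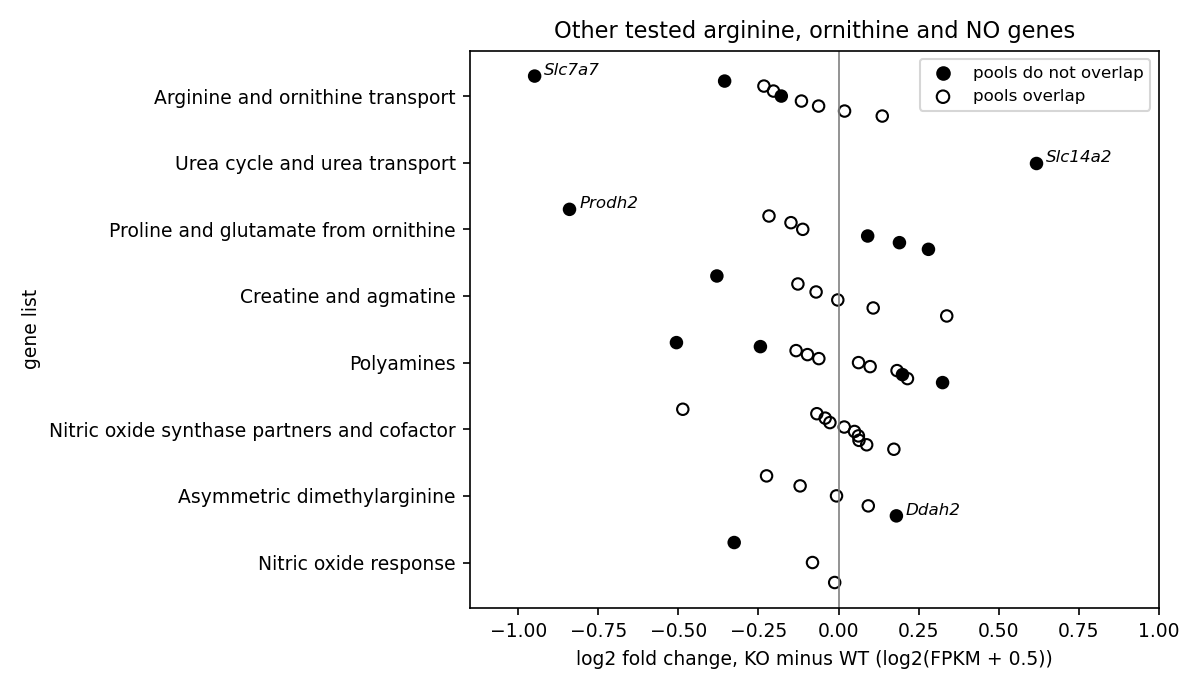
Log2 fold change (KO minus WT, of log2(FPKM + 0.5)) of the 52 tested pathway genes that are not members, in 8 lists, with filled points for genes whose pools do not overlap. Most points lie between -0.5 and 0.5, and Slc7a7 and Prodh2 lie farthest to the left and Slc14a2 farthest to the right.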

How the data were processed

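Poly-A selected kidney RNA of 4 libraries was given by the authors as FPKM, in 1 deposited table. Their processing notes name HISAT2 2.0.5 and the builds mm10 and GRCm38.p6, and the counting tool is not given in the sources used here. Gene positions equalled those of GENCODE M21 for 97.1% of the 53706 genes shared. FPKM times gene length gave whole reads for 100% of values within 0.01 of a read, and these reads are the depths given. The scaling of the deposited FPKM was proportional to median-of-ratios size factors, so FPKM sums differ between libraries (327289 to 380641).

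KO was set against WT on log2(FPKM + 0.5) by limma (version 3.58.1, R 4.3.3; eBayes with a mean-variance trend, two-sided, no covariates), for the 15414 genes whose mean FPKM reached 0.5, and p-values were adjusted over all of them by Benjamini-Hochberg. Fold changes are on that scale, where the pseudocount understates changes of low genes. The SE is from the same fit, the SD is over 2 pools, and the pool numbers of the labels were not used as pairs. The fit was tested on simulated data. The p-values set the difference between groups against the spread between pools, moderated over all tested genes, and not against the spread between mice. Python 3.11.15, numpy 2.4.6, pandas 2.3.3 and matplotlib 3.10.9 did the rest.

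The members and lists were chosen with earlier results of these data known. Of the 10 genes that the rule gives, 2 are not reported here, and the other 8 are all named. Pathway genes are named where the unadjusted p was under 0.05 without overlap of the pools, and Nos1 and Ddah2 as paralogs. Other pathway and marker genes given with values were chosen after these were seen. Alternatives were other pseudocounts (0.1 and 1), no filter, a filter of 1 FPKM, quantile normalization, scaling to the FPKM sum, no trend, a replicate block, voom weights on the reads, protein-coding genes only and each pool left out. Adding reads of pseudogenes to Ass1 and Odc1 was chosen after seeing the data.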

Additional observations from a re-analysis of the deposited data

How the results depend on the processing

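Under every alternative run, 0 genes passed an adjusted p of 0.05 with limma, and 974 had an unadjusted p under 0.05 in the main comparison (687 to 1720 over the alternatives), 3 of them members. That number of members was 1 without a filter on low values, 2 with scaling to the FPKM sum, 2 with the replicate block and between 1 and 3 with a pool left out. Gatm had an unadjusted p under 0.05 under every alternative. Odc1 lost it without a filter (0.0578), with the replicate block (0.0933) and without any of the pools (0.0832 to 0.285). Nos3 lost it without a filter (0.0521), with scaling to the FPKM sum (0.0801), without WT pool 1 (0.129) and without KO pool 2 (0.165). Without KO pool 2, Ass1 (0.0263) and Asl (0.0137) gained it. Gatm, Odc1, Nos3, Slc7a7, Prodh2, Slc14a2 and Ddah2 kept the sign of their log2 fold change under every alternative. Leaving out single pools gave log2 fold changes from -1.13 to 0.29 for Ass1 and from -0.88 to 0.034 for Asl (both positive without KO pool 1), from -0.058 to 0.12 for Oat and from -0.033 to 0.32 for Ddah1 (both negative without WT pool 2, and Oat also without KO pool 2). Oat was also -0.080 under quantile normalization and -0.070 with scaling to the FPKM sum, which moved the median of all tested genes to -0.083. The higher genes were 52.1% of those at an unadjusted p under 0.05 in the main comparison and 35.0% under that scaling, and the cause was not tested. Members without overlap of the pools were 3, with 5 under scaling to the FPKM sum (Asl and Oat added, both lower) and 4 under quantile normalization (Oat added, lower). Of all tested genes, 10.8% were higher and 25.4% lower without overlap under scaling to the FPKM sum (36.2% in all), and 36.8% lay on either side under quantile normalization. The 3 pathway genes at an unadjusted p under 0.05 became 2 to 6 with a pool left out (5 without WT pool 1 and 6 without WT pool 2). The deviations of same-numbered pools correlated at -0.00166 across genes. This value cannot exclude a pairing that touches few genes, so whether the pool numbers pair the samples stays unknown. With the replicate block, 0 genes passed an adjusted p of 0.05 with limma and 932 had an unadjusted p under 0.05. With pseudogene reads added, the log2 fold change was -0.39 for Ass1 and -0.43 for Odc1. In fits without a pool, the lone pool of its group is assumed to vary like the others. Depth limits Nos2, with as few as 17 reads.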
